A study of Mus musculus with 6 samples.

Results

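The small nucleolar RNA (snoRNA) genes were taken as all probe sets, the groups of short oligonucleotides that read a transcript on this array, which the annotation pairs with exactly 1 gene symbol starting with Snord, Snora or Scarna. Of 34472 probe sets, 81 met this rule. A second Snora19 probe set repeated the 6 values of the first and was dropped, which left 80 probe sets for 78 genes. They comprised 47 box C/D (Snord), 27 box H/ACA (Snora) and 6 small Cajal body RNA (Scarna) probe sets, with 2 probe sets each for Snora33 and Scarna17. A further 46 probe sets carried several symbols that included a snoRNA, 16 of them with copies of the imprinted Snord116 repeats, and did not count as members, so no gene of the families Snord113 to Snord116 is described here.

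The arrays (Mouse Gene 2.0 ST) read the RNA of T-regulatory cells (Treg), which were sorted as CD4+CD25+ cells by magnetic beads out of suspensions of spleen and peripheral lymph nodes. They comprised 3 HDAC10-/- and 3 wild type (WT, HDAC10+/+) Treg samples, all from untreated female C57BL/6 mice aged 8 to 12 weeks, labelled as independent samples. HDAC10-/- mice lack the gene in all cells and not only in Treg. The mutant line was bought on a B6N background while the substrain of the WT mice is not stated, so substrain and genotype cannot be told apart, and whether cells of several mice were pooled for an array is not stated either. All values are log2 signals, so a difference of 1 is a doubling.

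Small nucleolar RNAs are short noncoding RNAs that work in ribonucleoprotein particles. Box C/D RNAs base-pair with ribosomal RNA and direct the methylation of the ribose 2′ oxygen by fibrillarin, box H/ACA RNAs direct the conversion of uridine to pseudouridine by dyskerin, and Cajal body RNAs do the same for the RNAs of the spliceosome. A few, such as the RNAs of Snord118, Snord22, Snora73a and Snora73b, act in the cleavage of the ribosomal RNA precursor instead. Most vertebrate snoRNA genes lie within introns of a host gene, often a ribosomal protein gene or a noncoding snoRNA host gene (Snhg), and the mature RNA is trimmed from the spliced intron. An array cannot tell the mature RNA from the host's intron, and RNA here was purified on silica columns (RNeasy), which retain short RNAs poorly.

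The sequences of 2 members could be read, because RefSeq (mouse assembly GRCm38.p6) annotates a microRNA hairpin inside each of these box H/ACA genes. They are shown because the genes lie on opposite sides of the pattern by length described below. For Snora34, the hairpin Mir1291 at chr15:98519762-98519834 on the minus strand covered the first 73 of 118 bases, and capitals mark the only match to the H box motif ANANNA. For Snora19, the hairpin Mir3084-2 at chr19:60774330-60774385 on the minus strand covered all 56 annotated bases, and capitals mark the only match to the ACA motif.
Snora34: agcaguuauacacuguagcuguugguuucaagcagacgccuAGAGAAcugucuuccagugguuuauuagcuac
Snora19: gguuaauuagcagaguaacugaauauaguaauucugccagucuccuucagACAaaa

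The H box match of Snora34 starts at base 42 of the hairpin, and the ACA of Snora19 is followed by 3 bases, the spacing at which this box stands from the end of a mature H/ACA RNA. Such short motifs are common. ANANNA was found in 54.7% of 611 stretches of 73 bases taken from RefSeq mouse microRNA hairpins, and ACA in 51.5% of 973 stretches of 56 bases, each searched on the given strand. Snora34 read 7.42, 6.82 and 7.03 in HDAC10-/- and 7.27, 6.82 and 6.81 in WT Treg. Snora19 read 4.92, 5.52 and 5.43 in HDAC10-/- and 5.32, 5.50 and 4.92 in WT Treg. The genotypes overlapped for both genes (log2 differences 0.12, standard error (SE) 0.18, and 0.043, SE 0.20), and HDAC10-/- replicate 1 was the highest array for Snora34 and shared the lowest value for Snora19.

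The genotype labels were checked on Hdac10 itself, which read 6.11, 6.22 and 6.22 in HDAC10-/- and 9.03, 9.30 and 8.95 in WT Treg, a 7.52-fold lower signal (adjusted p = 0.000139, limma). Array medians lay between 6.18 and 6.24. Of the 6 Treg markers, none differed at an adjusted p under 0.1, and their mean signal was 12.03 to 12.11 in HDAC10-/- and 12.05 to 12.09 in WT arrays. Cd4, on which the cells were sorted, was lower without overlap (-0.14, adjusted p = 0.331, limma), as were 10.9% of all probe sets. The other markers overlapped. Markers of other cells were higher in HDAC10-/- Treg, where 1.25% of all probe sets were called higher (adjusted p under 0.1). For macrophages and monocytes 8 of 10 measured genes were called (mean signal 7.37 to 7.60 against 6.48 to 6.65), and 6 of 8 for neutrophils (6.27 to 6.60 against 5.45 to 5.52). For B cells 4 of 7 were called (8.52 to 8.70 against 7.91 to 8.11), and 3 of 5 for dendritic cells (7.03 to 7.15 against 6.53 to 6.65). The CD8 T and NK cell list had 4 of 6 called (8.47 to 8.57 against 8.06 to 8.19). It includes Gzmb, whose mRNA the study reported as increased in HDAC10-/- Treg. Genes of cycling cells, which mark a state and not a cell type, had 2 of 5 called (9.55 to 9.66 against 9.17 to 9.28). Array signals have no zero, so no marker can be called absent, and the part of these cells in the snoRNA differences was not tested. In bulk samples a smaller share of a cell type and less RNA per cell cannot be told apart.

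Most snoRNA probe sets were bright. Mean signals over the 6 arrays ran from 5.21 to 12.10 for box C/D genes with a median of 8.88, from 5.27 to 12.81 for box H/ACA genes with a median of 8.98, and from 6.89 to 11.84 for Cajal body genes with a median of 10.26. Of the 80 probe sets, 69 (86.2%) exceeded 6.21, the median signal over the whole array, which held for 38 of 47 box C/D, 25 of 27 box H/ACA and all 6 Cajal body probe sets. Among 500 probe sets of microRNA genes, another class of short RNAs on the array, 29.2% lay above it and the median was 5.02. A brighter probe set need not mean more RNA, since probes differ in how they bind, so genes are compared below between arrays and not with each other.

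HDAC10-/- replicate 1 stood apart from the other 5 arrays in the snoRNA genes. Over the 80 probe sets its correlation with the other arrays was 0.971 to 0.977, while all other pairs of arrays reached 0.990 to 0.997. It held the lowest value of the 6 arrays for 40 of the 80 probe sets (50.0%, against 18.9% of all probe sets) and the highest for 14. The median standard deviation (SD) between replicates was 0.17 in HDAC10-/- and 0.084 in WT Treg for the snoRNA probe sets, against 0.10 and 0.080 for all probe sets. The class medians, the counts of snoRNA genes and each snoRNA call that changes are therefore also given without this array.

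The deviation of this array ran with the annotated length of the gene. Taking each probe set's signal minus the median of the other 5 arrays, the Spearman correlation with RefSeq gene length was 0.54 in HDAC10-/- replicate 1 and between -0.29 and 0.12 in the other arrays (80 probe sets on the same arrays, some with shared hosts, so no p is given). Among the 40 probe sets of genes under 80 bases the median deviation was -0.25 and this array was the lowest in 29 of them. Among the 26 of 110 bases or more the median was 0.10 and it was the highest in 11, and the 14 in between had a median of -0.075.

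**Figure D1:**
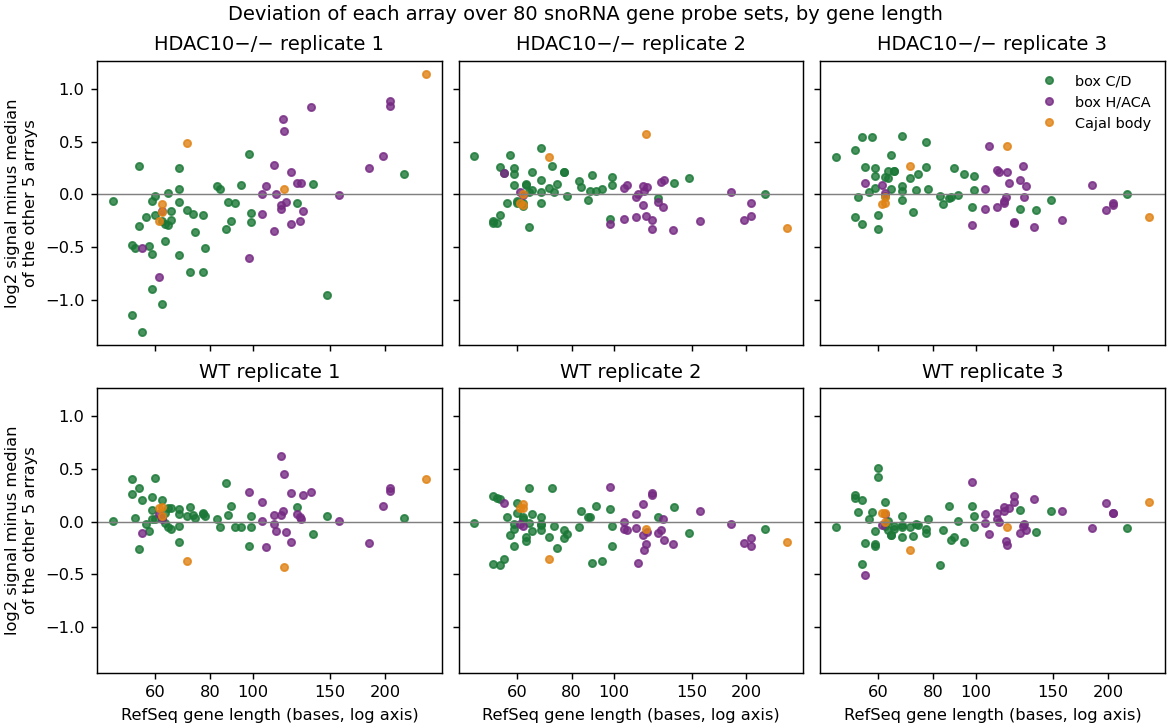
Each point is a snoRNA gene probe set (80 per panel), with the annotated gene length in bases on a log axis and the log2 signal of the named array minus the median of the other 5 arrays on the vertical axis. In HDAC10-/- replicate 1 short genes lie mostly below 0 and the longest above it (Spearman 0.54), and the other 5 arrays show a narrower spread with correlations of -0.29 to 0.12.

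Because short genes are mostly box C/D (33 of 40) and long ones mostly box H/ACA (20 of 26), class and length run together. Within a class the correlation in HDAC10-/- replicate 1 was 0.32 for box C/D and 0.63 for box H/ACA genes. In the other arrays it ran from -0.24 to 0.095 for box C/D and from -0.36 to 0.24 for box H/ACA genes. The microRNA probe sets, whose genes are also short, had a correlation of 0.071. They were much dimmer, with a median signal of 5.02 against 8.97 for the snoRNA probe sets, so they are no matched contrast. Snora19, Snora20 and Snora61, the only box H/ACA genes annotated at under 80 bases (56, 61 and 62, against 98 to 205 for the other 24 probe sets), deviated by -0.51, -0.78 and -0.16, the direction of the short box C/D genes. These lengths, and the 71 bases of Scarna10, are short for their class and may not be those of the mature RNAs. The correlation was 0.51 over the other 24 box H/ACA probe sets, and 0.54 over the 76 members without Snora19, Snora20, Snora61 and Scarna10. Scarna2 (61 bases) and Scarna17 (62 bases) are annotated as shorter than Scarna10 and stayed among the 76. That correlation therefore does not leave out every doubtful length.

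The genes that deviated most show how far a single array reached. Snord99, at 56 bases, read 9.13, 10.44 and 10.50 in HDAC10-/- and 10.44, 10.09 and 10.24 in WT Treg. Snord70, at 53 bases, read 5.23, 6.12 and 6.54 against 6.52, 5.97 and 6.37. Scarna6, at 248 bases, read 10.81, 9.54 and 9.64 against 10.07, 9.67 and 9.86. In each of them only the first HDAC10-/- value lay outside the WT range by a wide margin. The genes of Snora73a and Snora73b, both 205 bases long, deviated by 0.84 and 0.88. Not every gene followed its length. This array was the lowest in 5 of the 26 probe sets of 110 bases or more, and the highest in 2 of the 40 under 80 bases. Snord15a, at 148 bases, deviated by -0.95 (7.88, 8.93 and 8.78 against 8.83, 8.72 and 8.88), and Scarna10, at 71 bases, by 0.49. Whether RNA recovery by length differed for this sample was not tested.

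Between the genotypes the class medians of the snoRNA genes differed little. The lower and upper quartiles of the log2 difference were -0.17 and 0.089 for the snoRNA probe sets, against -0.08 and 0.09 for all probe sets. The median log2 difference, HDAC10-/- minus WT, was -0.013 for box C/D, -0.0067 for box H/ACA and 0.015 for Cajal body probe sets, against 0 for all probe sets, and single values ran from -0.44 to 0.49. There were 38 probe sets with a higher and 42 with a lower mean in HDAC10-/- Treg. None reached a difference of 1.5-fold, the minimum the study's methods set beside an adjusted p under 0.1, and thus none passed both, as 0.685% of all probe sets did. Without HDAC10-/- replicate 1 the class medians were 0.045, -0.042 and -0.10, which turned the box C/D and Cajal body signs. Other settings turned signs as well. The box C/D and box H/ACA medians were both 0.0067 after quantile normalization. The box H/ACA median was 0.03 without HDAC10-/- replicate 2 and 0.01 without WT replicate 1. The Cajal body median was -0.018 after median centring and -0.017 without WT replicate 2. By length, the medians were -0.058, 0.0067 and 0.025 for genes under 80, from 80 to under 110 and of 110 or more bases, and 0.066, 0.04 and -0.055 without that array, so that short and long genes exchanged sides.

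By the adjusted p alone, 4 of 80 probe sets (5.0%) passed, against 2.01% of all probe sets. In HDAC10-/- Treg, 2 were higher, where the background was 1.25%, and 2 were lower, where it was 0.757%. Without HDAC10-/- replicate 1, 5 higher and 4 lower probe sets passed (11.2%, against 3.15% of all probe sets in that fit), and only 2 of the first 4 (Scarna10 and Snora69) were among them. Leaving out any other single array left 0 passing, where only 0.511% to 0.682% of all probe sets passed. Other scalings of the arrays moved the split from 2 higher and 2 lower to 2 and 0 (quantile normalization) or 1 and 3 (median centring). At an unadjusted p under 0.05 there were 20 probe sets (25.0%, against 14.7% of all), 6 higher and 14 lower.

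The values of the 3 arrays of each genotype did not overlap for 8 higher probe sets (10%, against 9.89% of all probe sets) and 14 lower ones (17.5%, against 10.9%). Without HDAC10-/- replicate 1 these counts were 24 (30.0%) and 20 (25%), where fewer arrays also raised the shares of all probe sets to 17.2% and 18.8%. Without WT replicate 1 they were 13 (16.2%, against 14.9%) and 14 (17.5%, against 14.4%). Without any other single array the higher share lay below that of all probe sets, and the lower share above it. With all arrays the share of higher probe sets was thus near the background.

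**Figure D2:**
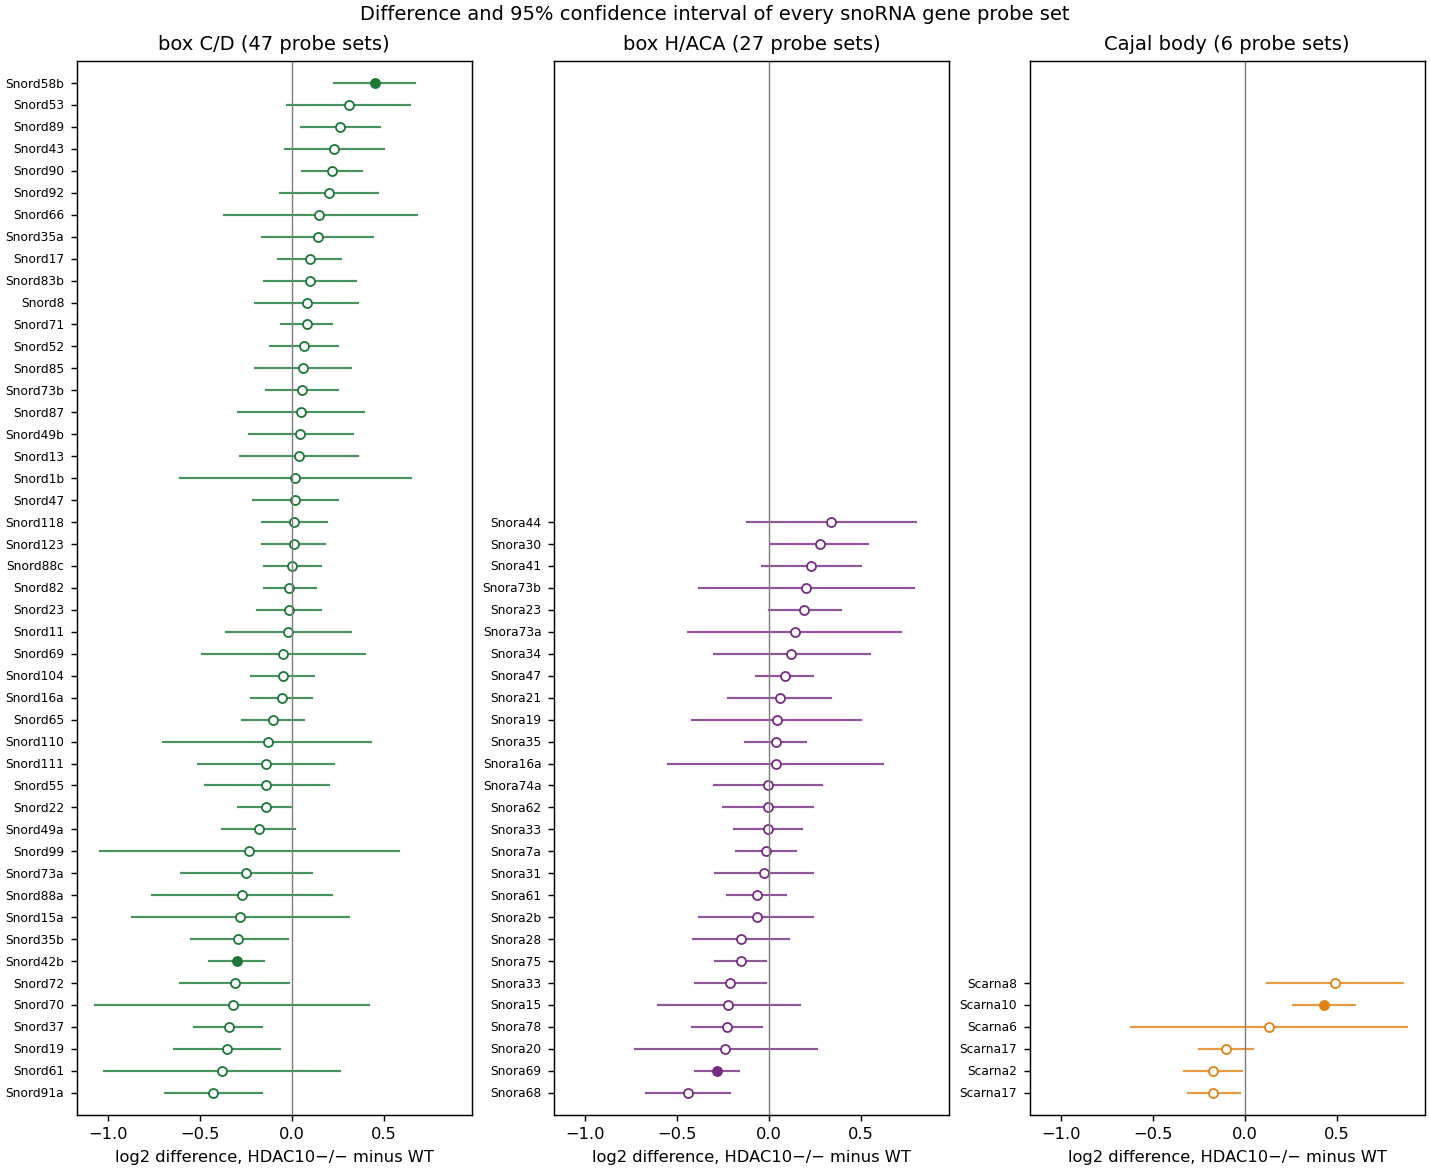
Points give the log2 difference of each of the 80 snoRNA gene probe sets, HDAC10-/- minus WT Treg (3 arrays each), and lines the 95% confidence interval from limma, by class. The 4 called probe sets (adjusted p under 0.1) are filled, and all differences lie between -0.44 and 0.49.

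Among box C/D genes, Snord58b rose and Snord42b fell. Snord58b, which in humans guides methylation of the large-subunit ribosomal RNA, read 8.89, 8.88 and 9.16 in HDAC10-/- and 8.62, 8.47 and 8.48 in WT Treg. All 3 HDAC10-/- values lay above the WT values, with a log2 difference of 0.45 (SE 0.093, 1.37-fold, adjusted p = 0.0916, limma). Snord42b, which in humans guides methylation of the small-subunit ribosomal RNA, read 8.83, 8.93 and 8.85 against 9.25, 9.14 and 9.13. All 3 were below the WT values, by -0.30 (SE 0.063, adjusted p = 0.097, limma). Both missed the threshold without HDAC10-/- replicate 1 (adjusted p = 0.103 and 0.123, limma) at nearly the same differences of 0.50 and -0.28.

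Further box C/D genes had separate genotypes but missed significance. Snord37, held by the elongation factor gene Eef2, read 9.02, 9.23 and 9.28 in HDAC10-/- and 9.54, 9.52 and 9.50 in WT Treg. The difference was -0.34 (adjusted p = 0.118, limma), and without HDAC10-/- replicate 1 it passed at -0.27 (adjusted p = 0.0966). Snord91a read 5.62, 5.74 and 5.49 against 6.15, 5.82 and 6.16, a difference of -0.43 at low signal (adjusted p = 0.156). Snord19 and Snord72 were also dim, with differences of -0.35 and -0.31 (adjusted p = 0.257 and 0.318, limma). On the higher side stood Snord89 at 0.26 (11.60, 11.56 and 11.70 against 11.51, 11.19 and 11.37, adjusted p = 0.258, limma), Snord90 at 0.22, the dimmest box C/D member with a mean of 5.21, and Snord71 at 0.08.

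The 3 brightest box C/D genes had overlapping genotypes and intervals that included 0. Snord82, in an intron of the nucleolin gene Ncl, read 12.08, 11.98 and 12.06 in HDAC10-/- and 12.10, 12.03 and 12.03 in WT Treg. Its difference was -0.013, with a 95% interval of -0.15 to 0.13. The intervals were -0.23 to 0.33 for Snord49b and -0.14 to 0.25 for Snord73b. Of the box C/D RNAs that act in precursor cleavage, Snord118 differed by 0.013. Snord22, another of them, read 8.57, 8.61 and 8.51 against 8.75, 8.65 and 8.72, without overlap, and missed significance at -0.14 (adjusted p = 0.335, limma). Snord13 differed by 0.037.

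A few box C/D genes stood out once HDAC10-/- replicate 1 was left out, although none of them passed with all arrays. Snord53, held by Wdr43, read 9.98, 10.45 and 10.56 in HDAC10-/- and 10.01, 10.05 and 10 in WT Treg. With all arrays it differed by 0.31 (adjusted p = 0.375, limma), and without the first by 0.48 (adjusted p = 0.044). Snord43 changed from 0.23 (adjusted p = 0.409) to 0.36 (adjusted p = 0.061), and Snord66 from 0.15 (adjusted p = 0.806) to 0.44 (adjusted p = 0.0815, limma). In all 3 genes the first HDAC10-/- array lay below the other HDAC10-/- arrays and below all WT arrays, by a small margin in Snord53 and Snord43.

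Among box H/ACA genes, only Snora69 passed. Snora69, which in humans guides pseudouridylation of a large-subunit ribosomal RNA, read 9.38, 9.42 and 9.40 in HDAC10-/- and 9.69, 9.69 and 9.66 in WT Treg. Replicates differed by at most hundredths of a log2 unit and the groups were clearly separate, with a difference of -0.28 (SE 0.053, 1.21-fold, adjusted p = 0.0746, limma). It was the only member that also passed the methods' t-test. Snora68 read 8.63, 8.95 and 8.94 against 9.23, 9.28 and 9.33. The largest fall of all members, -0.44, missed significance (SE 0.10, adjusted p = 0.107, limma) and passed without HDAC10-/- replicate 1 (-0.34, adjusted p = 0.0749).

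Snora78 and Snora75 had lower values without overlap, at -0.23 and -0.15 (adjusted p = 0.267 and 0.300, limma). Snora78 read 10.25, 10.01 and 10.02 in HDAC10-/- and 10.26, 10.35 and 10.35 in WT Treg, and passed without the first HDAC10-/- array (-0.30, adjusted p = 0.0893). Snora30 (0.28, adjusted p = 0.318) and Snora23 (0.19, adjusted p = 0.343) were the box H/ACA genes with higher values and no overlap. Of the 2 probe sets of Snora33, the brightest of all members with a mean of 12.81 differed by -0.0067 (95% interval -0.19 to 0.18) and the second, at 7.71, 7.48 and 7.57 against 7.90, 7.71 and 7.78, by -0.21 (adjusted p = 0.307). Snora28, another bright member, differed by -0.15 with overlap.

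Of the Cajal body genes, Scarna10 rose. Its human counterpart carries both kinds of boxes and guides modification of a spliceosomal RNA. It read 8.84, 8.70 and 8.62 in HDAC10-/- and 8.25, 8.27 and 8.35 in WT Treg, a difference of 0.43 without overlap (SE 0.074, 1.35-fold, adjusted p = 0.0568, limma), and it passed without HDAC10-/- replicate 1 as well (0.37, adjusted p = 0.0741). Scarna8 had the largest rise of all members and a wider spread, at 6.83, 7.35 and 7.24 against 6.40, 6.76 and 6.78. Its difference of 0.49 (SE 0.16) missed significance (adjusted p = 0.222, limma). Without the first HDAC10-/- array it was 0.65 (adjusted p = 0.0993), the only member then over 1.5-fold.

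Scarna2 and the dimmer Scarna17 probe set were lower without overlap, both by -0.17. Scarna2 read 11.10, 11.27 and 11.26 in HDAC10-/- and 11.40, 11.40 and 11.35 in WT Treg (adjusted p = 0.300, limma). The second Scarna17 probe set, with a mean of 11.84, differed by -0.10 with overlap. The Cajal body genes therefore lay on both sides of 0, with 3 of 6 probe sets higher.

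**Figure D3:**
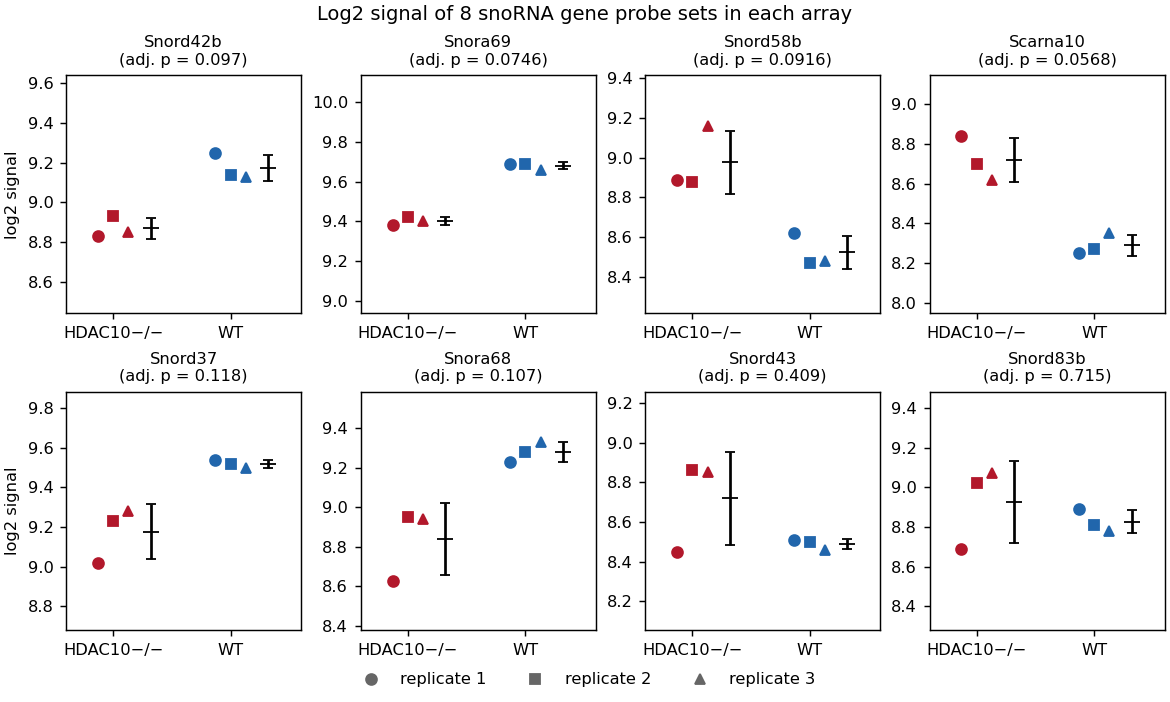
Points show the log2 signal of each array for the 4 called genes, for Snord37 and Snora68, which came close, and for Snord43 and Snord83b, which lie in Rpl3, with the mean and SD of the 3 arrays beside them. All panels span the same range of signal, and HDAC10-/- replicate 1 (circle) is the lowest HDAC10-/- array for Snord37, Snora68, Snord43 and Snord83b.

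Genes for the proteins that assemble, modify and trim snoRNAs were set beside them, from a list of 31 of which 29 were measured (fibrillarin, Fbl, and Nopchap1 had no probe set with 1 symbol). None was called with limma, the lowest adjusted p being 0.214. The median difference was -0.04 and the range -0.21 to 0.10, with 22 of 29 lower in HDAC10-/- Treg and, without overlap, 0 higher and 7 lower genes (24.1%, against 10.9% of all probe sets). At an unadjusted p under 0.05 there were 2 (6.9%, against 14.7% of all probe sets), both lower.

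Those 2 were Znhit3 and Pih1d1, which work in the assembly of box C/D particles. Znhit3 read 6.77, 6.96 and 6.85 in HDAC10-/- and 7.08, 7.09 and 7.05 in WT Treg (-0.21, adjusted p = 0.214, limma). Pih1d1, a subunit of the R2TP cochaperone, read 8.80, 8.77 and 8.73 against 8.98, 8.92 and 8.93 (-0.18, adjusted p = 0.218). The next were Parn, which trims the tails of box H/ACA RNAs, at -0.16 (adjusted p = 0.353), and the R2TP ATPase Ruvbl2 at -0.13 (adjusted p = 0.393). The measured core proteins lay closer to 0. Those of box C/D particles, Nop56, Nop58 and Snu13, differed by -0.06, -0.043 and -0.037, and those of box H/ACA particles, Dkc1 (dyskerin), Gar1, Nhp2 and Nop10, by -0.023, 0.027, 0 and -0.047.

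By position in the RefSeq gene table of GRCm38.p6, 76 of the 80 probe sets lay within another gene, 70 of them within exactly 1, and Scarna2, Snord118, Snord89 and Snord13 within none. The table gives no strand, so a holding gene is called a host by position only. For 59 probe sets the sole host had a probe set of its own, which gave 44 hosts with a median difference of -0.015. The Spearman correlation of member and host differences was 0.25 and Pearson's 0.069 over these 59 pairs, which share hosts and arrays. Members in ribosomal protein genes (14) had a median difference of -0.033 with 10 lower, and members in other hosts (45) of -0.0033 with 23 lower.

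Among the called genes, Snord58b and its host moved alike. Rpl17, a ribosomal protein gene, read 8.95, 9.18 and 9.15 in HDAC10-/- and 8.61, 8.61 and 8.81 in WT Treg, a difference of 0.42 without overlap that missed significance (adjusted p = 0.103, limma). Scarna10's host Ncapd2, a condensin subunit gene, differed by 0.16 (adjusted p = 0.300). Rpl23a, host of Snord42b, differed by -0.17 (adjusted p = 0.313), and Rpl39, host of Snora69, by 0.083 (adjusted p = 0.614), opposite in sign to its snoRNA. Snora30 at 0.28 and its host Srcap, a chromatin remodeller gene, at 0.27 (adjusted p = 0.211) were close.

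Read on the brightest probe set of each host, Rpl3 was the only one called of the 44, where 2.01% of all probe sets were called. The Rpl3 probe sets disagreed. The brightest read 11.10, 11.06 and 11.03 in HDAC10-/- and 12.23, 12.21 and 12.15 in WT Treg, a difference of -1.13 (SE 0.057, adjusted p = 0.000669, limma). The other 2 Rpl3 probe sets differed by 0.073 (10.60, 10.89 and 10.89 against 10.67, 10.80 and 10.69) and by -0.20, with overlap. The probe set numbers of these 2 lie beside those of Snord43 and Snord83b on the array, and that of the brightest lies apart. Ribosomal protein genes have many near-identical copies in the genome, and which of them a probe set reads was not checked here. The called probe set therefore need not read the gene that holds the snoRNA genes.

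The snoRNA genes inside Rpl3 did not fall. Snord43, which in humans guides methylation of the small-subunit ribosomal RNA, read 8.45, 8.86 and 8.85 in HDAC10-/- and 8.51, 8.50 and 8.46 in WT Treg (0.23, adjusted p = 0.409, limma). Snord83b read 8.69, 9.02 and 9.07 against 8.89, 8.81 and 8.78 (0.10, adjusted p = 0.715). In both genes the first HDAC10-/- array was the lowest of its genotype and the other 2 lay above every WT array. The same arrays were high in the Rpl3 probe set that differed by 0.073.

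**Figure D4:**
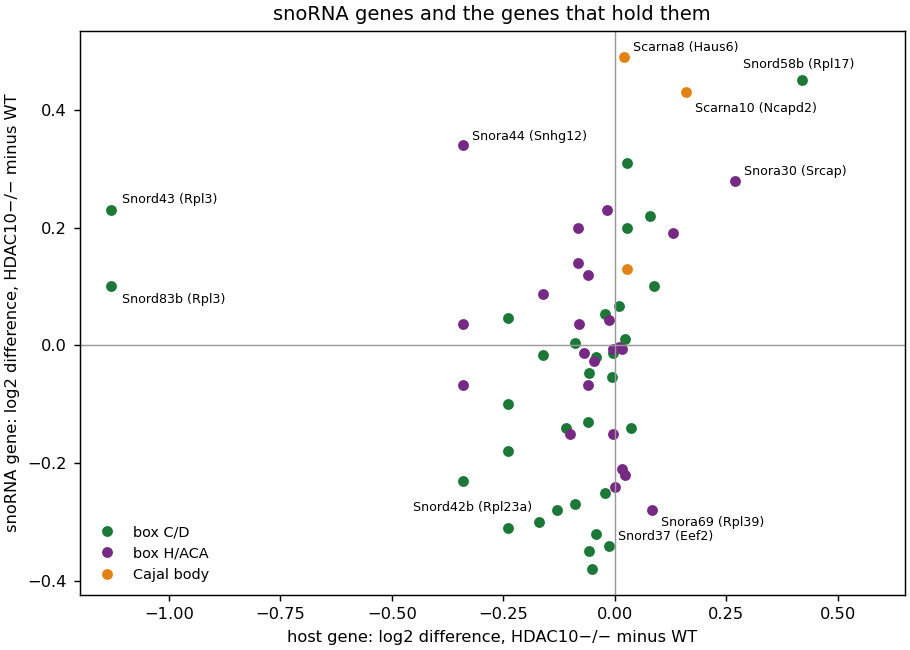
Each point is a snoRNA gene probe set with a sole measured host (59 points), with the host's log2 difference on the horizontal and the member's on the vertical axis, both HDAC10-/- minus WT Treg. The points scatter around 0 on both axes (Spearman 0.25), Snord58b with Rpl17 lies at the upper right, and the pair in Rpl3 lies at -1.13 by the brightest Rpl3 probe set.

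The spread by length also appeared within a single host, although not in every host with several members. Snhg12, a noncoding host gene, holds Snord99 (56 bases), Snora61 (62), Snora44 (117) and Snora16a (136). In HDAC10-/- replicate 1 Snord99 and Snora61 deviated by -1.31 and -0.16 from the median of the other arrays, while Snora44 and Snora16a deviated by 0.71 and 0.83. In Ncl it was absent, at -0.10 for Snora75 (116 bases) and 0.05 for Snord82 (68 bases), and in Rpl3 the shorter Snord43 (-0.06) deviated less than Snord83b (-0.20). Kansl2 holds Snora34 (118 bases) and Snora2b (112 bases), which deviated by 0.60 and -0.35 at similar lengths. Snora44 read 10.89, 10.21 and 10.18 in HDAC10-/- and 10.28, 9.94 and 10.03 in WT Treg. Snora16a read 10.83, 9.87 and 9.90 against 10.28, 10 and 10.21. Leaving that array aside, Snora44 and Snord99 read close to WT replicate 1 and Snora16a lay below all WT values.

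Snhg12 itself read 7.69, 7.80 and 7.93 in HDAC10-/- and 7.98, 8.22 and 8.23 in WT Treg. The host was lower without overlap but missed significance (-0.34, SE 0.10, adjusted p = 0.179, limma), and none of its members did so with it, at differences of -0.23, -0.067, 0.34 and 0.037 in the order of their length. Snhg3, host of Snora73a and Snora73b, differed by -0.083 and lay at 9.01, 8.98 and 8.90 in the HDAC10-/- arrays, so its own signal did not carry the high first value of its members (9.94 and 10.33). Snora35, known as a brain RNA from an intron of the serotonin receptor gene Htr2c, read 6.40, 6.47 and 6.51 in HDAC10-/- and 6.37, 6.37 and 6.53 in WT Treg and differed by 0.037.

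**Figure D5:**
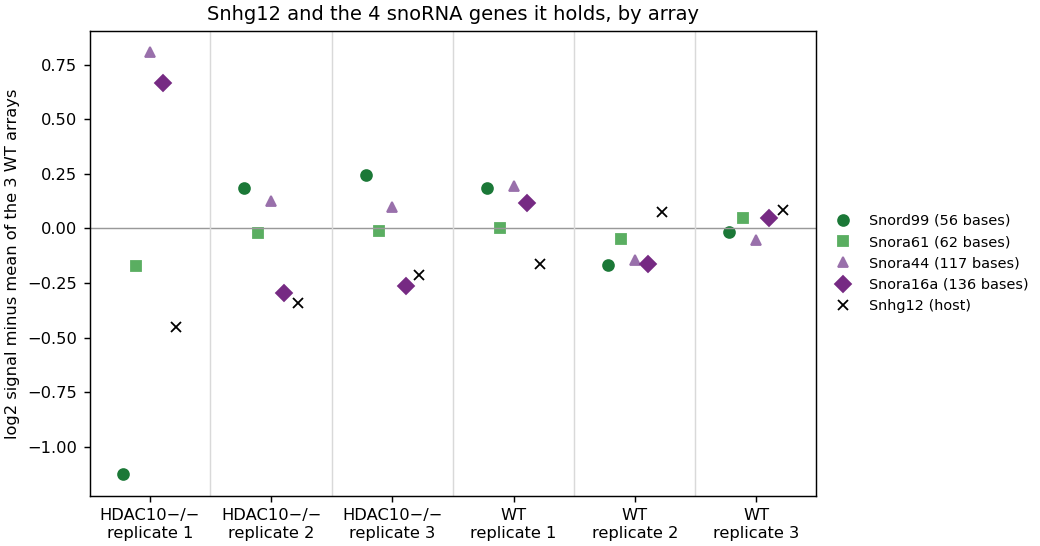
Points show, for each array, the log2 signal of Snhg12 and of the 4 snoRNA genes it holds, each minus its own mean over the 3 WT arrays. In HDAC10-/- replicate 1 the longer Snora44 and Snora16a lie high and Snord99 low, whereas the host lies low in all 3 HDAC10-/- arrays.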

How the data were processed

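RNA of CD4+CD25+ Treg was hybridized to Mouse Gene 2.0 ST arrays, 3 for each of 2 genotypes. The log2 signals deposited by the authors come from robust multiarray average normalization (Transcriptome Analysis Console 4.0), are given with 2 decimals and carry no detection calls or background values. Arrays have no read depth, and their number limits the precision. The values were used as deposited for all 34472 probe sets. Symbols came from the platform annotation, which names 1 gene for 23521 of them.

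Genotypes were compared with a two-sided moderated test in limma 3.58.1 (R 4.3.3, no intensity trend, prior degrees of freedom 3.23), with Benjamini-Hochberg adjustment over every probe set. A probe set counted as called at an adjusted p under 0.1, and again with the fold minimum of 1.5 from the methods. The procedure was tested on simulated data with independent noise and with larger changes than any snoRNA gene showed here, so that test does not cover differences of their size. P-values measure only the spread between these samples. Host genes and genes of the processing and marker lists were read on their brightest probe set.

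The members and lists were chosen with earlier results of these data known. Named in each class were the called members, up to 4 of the largest rises and 4 of the largest falls without overlap (2 each for Cajal body genes), the 3 brightest and the dimmest, together with the genes in Rpl3 and the processing genes with the smallest p, 28 snoRNA probe sets in all. Snord53, Snord66, Snord22, Snord118, Snord13, Snora35, Snora34, the second Snora33 probe set and the genes described for the first HDAC10-/- array were picked after their values were seen, as were the grouping by length and the genes left out of it.

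Alternatives were the methods' t-test, a robust fit with an intensity trend, array weights, quantile normalization, median centring, a replicate block, brighter probe sets alone, a stricter threshold, repeated rows kept or left out before the fit, and each array left out. All 80 probe sets matched the RefSeq table by gene identifier. The supplementary table was not used here.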

Additional observations from a re-analysis of the deposited data

How the results depend on the processing

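The call on single snoRNA genes depended on the setting, and the cause was not tested. Against 2 higher and 2 lower probe sets (5.0%, all probe sets 2.01%), the methods' t-test gave 0 and 1 (1.25%, all 0.525%), the intensity trend with the robust option 2 and 6 (10%, all 5.09%), array weights 2 and 4 (7.5%, all 3.86%, with the lowest weight, 0.433, on HDAC10-/- replicate 1), quantile normalization 2 and 0 (2.5%, all 1.87%), median centring 1 and 3 (5.0%, all 2.22%), and an adjusted p under 0.05 gave 0 and 0. With brighter probe sets alone 2 and 4 passed, 8.7% of the 69 members kept and below the 11.6% of all probe sets in that fit. Leaving out 1 array gave 0 to 5 higher and 0 to 4 lower probe sets, with 0 to 1 over 1.5-fold. The upper values came without HDAC10-/- replicate 1 (all probe sets 3.15%), and the other fits gave 0 and 0 (all 0.511% to 0.682%). Without 1 array the probe sets without overlap were 8 to 24 higher and 14 to 20 lower. The shares of all probe sets were 13.8% to 17.2% and 14.3% to 18.8%. The lower share of members exceeded that of all probe sets in each of these fits. The higher share exceeded it only without HDAC10-/- replicate 1 or WT replicate 1. It was below it without any other array, such as HDAC10-/- replicate 3 (11.2%, against 14.9%) or WT replicate 3 (12.5%, against 13.8%).

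Replicate numbers did not pair the arrays, since deviations of equal numbers correlated by -0.0032, 0.00063 and -0.024. A replicate block gave 0 higher and 0 lower calls against 2 and 2, where 0.595% of all probe sets were called. The call on Hdac10 held (adjusted p = 0.00539, limma).

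Called hosts, each read on its brightest probe set, numbered 1 of 44, where 2.01% of all probe sets were called. With the trend there were 5 (all probe sets 5.09%), with array weights 2 (3.86%) and after quantile normalization 2 (1.87%). Brighter probe sets alone gave 4 (11.6%), and leaving out 1 array gave 1 to 3 (0.511% to 3.15%). Processing genes were called only with brighter probe sets alone, 2 of them, in a fit that called 11.6% of all probe sets. The share above the median of all probe sets was 100% for box C/D and box H/ACA with brighter probe sets alone, by construction, and 89.3% for box H/ACA with the repeated Snora19 row kept.

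Signs turned in 5 named genes, none of them called. Snord82 turned to 0.041 after quantile normalization and ranged from -0.033 to 0.017 over the fits without 1 array (0.01 without WT replicate 1). The bright Snora33 probe set turned to 0.032 with array weights and 0.0014 after quantile normalization, and ranged from -0.048 to 0.072 without 1 array. The same range was -0.032 to 0.18 for Snord49b, -0.12 to 0.23 for Snora19 and -0.0033 to 0.12 for Snord73b. The upper value came without HDAC10-/- replicate 1 in all but Snord82, where the lower did.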
